A study of Rattus norvegicus with 6 samples.

Results

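The genes examined here move calcium across the membranes of the endoplasmic reticulum (ER) and of the cell surface. They are the ER calcium pumps Atp2a2 and Atp2a3, the ER release channels Itpr1, Itpr2, Itpr3 and Ryr2, the ER calcium sensor Stim1, the plasma membrane pump Atp2b1 and the sodium-calcium exchanger Slc8a1. These 9 genes were chosen by name, and all 9 were measured, out of 14217 genes that the array annotation names by a single symbol. A gene was read from its brightest probe set (a group of short probes against one transcript), and its other probe sets, 21 in all for the 9 genes, served as a check.

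A cell sorter (FACS) was used to purify beta cells of 10-week-old male Wistar rats that had been fasted for 24 h or fed ad libitum. Each group held 3 independent isolates of cells pooled from 5 rats, and each isolate was read on 1 Affymetrix array. Cells were frozen directly after isolation, RNA was extracted from all isolates together, and no other agent or allele distinguished the groups. The comparison asks how the transcripts of freshly isolated beta cells differ after a day without food.

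In a beta cell, glucose metabolism depolarises the plasma membrane, voltage-gated channels admit calcium, and the rise of cytosolic calcium triggers insulin release. Sarco/endoplasmic reticulum calcium ATPases (SERCA pumps) refill the ER, whose calcium is needed by folding chaperones, and receptors for inositol trisphosphate (IP3) and ryanodine release it again. When the store empties, STIM1 opens channels in the plasma membrane, while plasma membrane pumps and the sodium-calcium exchanger carry calcium out of the cell.

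The values are model-based intensities on a linear scale, and they have no unit that can be compared between probe sets. The median probe set had an intensity of 17.1, 17.8 and 21.0 in fasted rats and of 21.1, 21.8 and 20.2 in fed rats, so fasted replicates 1 and 2 were dimmer overall. Fasted replicate 1 also stood apart in its log2 values over all probe sets, with correlations of 0.877 to 0.929 with the other arrays, against 0.933 to 0.961 among those 5. Of the genes of other cells that the sort could hold, summed acinar markers (11 measured) ranged from 54939 to 61447 in fasted and from 58493 to 62762 in fed rats. Several read near the highest value of the data (7629), such as Prss1 with means of 6449 in fasted and 6297 in fed rats. For such genes on human arrays, the paper proposes that saturated probes no longer follow the amount of RNA, so this sum may miss a difference. Summed alpha cell markers (4 measured, mostly Gcg) were 5028, 5840 and 5356 in fasted rats and 4484, 7833 and 3578 in fed rats, and fed replicate 2 stood above all other arrays, as it did for the delta and PP, immune and stellate cell lists. Duct cell markers (4 measured) summed to 430 to 536 in fasted and 353 to 403 in fed rats, and did not overlap (Krt19 was called higher, as was the endothelial gene Flt1). Beta cell markers such as Ins2 and Iapp were bright on all arrays, with sums of 22725 to 24166 in fasted and 23603 to 24768 in fed rats over 7 genes. Ins1, Ins2 and Iapp made up most of this sum and also read near the highest value, so it says little of the dimmer markers. Single log2 ratios ran from -0.34 for Mafa to 0.53 for Pdx1 (unadjusted p = 0.0419 and 0.121 from limma), and none of the 7 was called. Muscle markers, which matter because Ryr2 and Atp2a2 are abundant in heart, were dim, with 4 of 5 below the median probe set. The part of these markers in the results was not tested. Fewer cells of one type and less RNA per cell cannot be told apart in such bulk samples.

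Among the 9 genes, Slc8a1 alone was called lower in fasted rats, which takes 1.5-fold or more together with a limma p below 0.05 before adjustment, and none was called higher. That is 1 of 9, beside 9.51% of all genes called lower and 2.29% called higher by the same rule (8.43% and 2.37% of all probe sets). Of all 14217 genes, 66.4% had a negative log2 ratio of fasted over fed, and 7 of the 9 did. The median log2 ratio of the 9 genes was -0.22 and that of all genes -0.19, so as a group these genes lay 0.03 below the median gene. After quantile normalization the medians were 0.03 for the 9 genes and -0.01 for all genes, and with arrays scaled to a common 75th percentile they were 0.03 for both. No probe set of the 9 genes passed an adjusted p under 0.05 in limma (smallest 0.28), and none of the 31042 on the array did (smallest 0.155), although 4622 had an unadjusted p under 0.05. At an unadjusted p under 0.05 alone, 3 of the 9 passed (Atp2a2, Atp2b1 and Slc8a1), all lower, beside 14.9% of all genes that passed lower. Without fasted replicate 1 the same 3 genes had an unadjusted p under 0.05, none of the 9 was called and their median log2 ratio was -0.081. In that fit Atp2a2 was at -0.34 (unadjusted p = 0.0359 from limma), Atp2b1 at -0.39 (0.0326), Stim1 at -0.18 (0.472) and Atp2a3 at 0.044 (0.829).

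**Figure D1:**
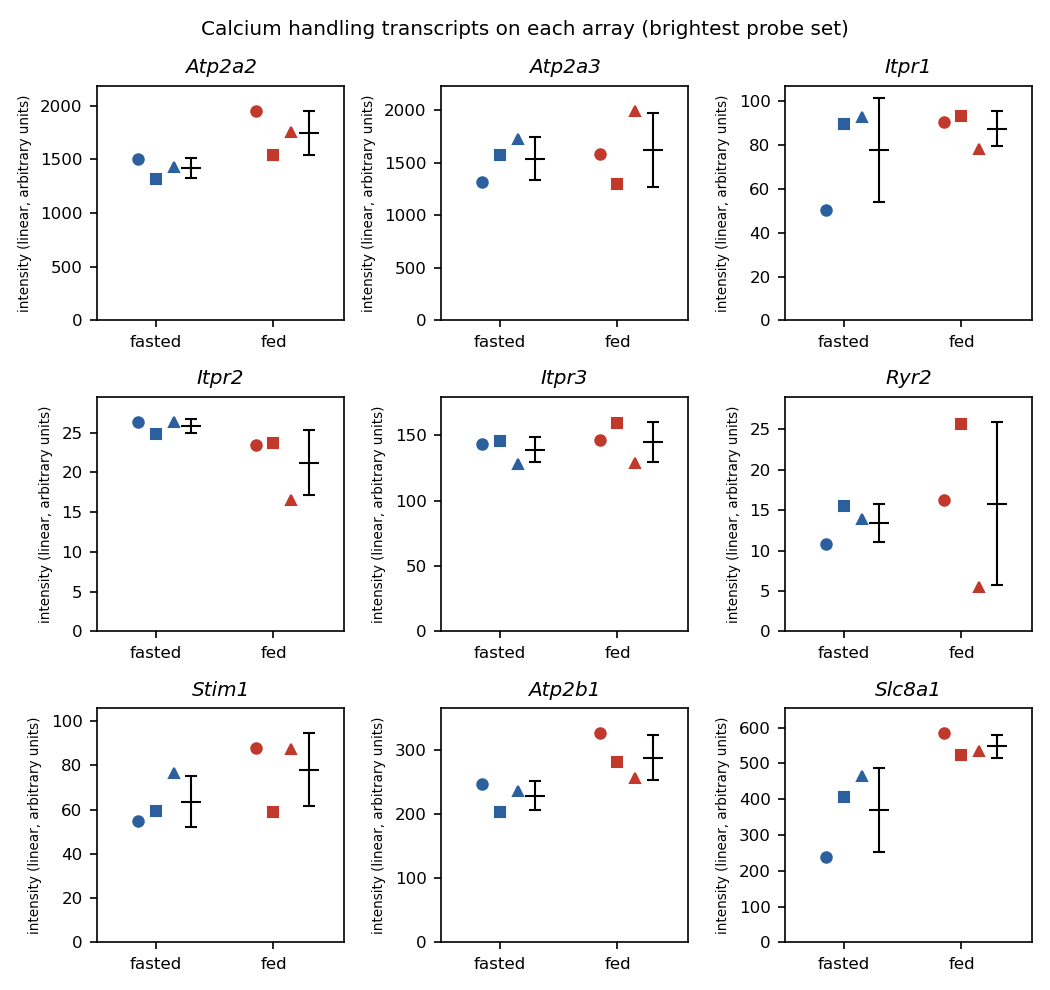
Intensity (linear, arbitrary units, axis from 0) of the brightest probe set of each of the 9 genes on the arrays of fasted (blue) and fed rats (red); circles, squares and triangles are replicates 1, 2 and 3, black bars the mean and SD of 3 arrays. The fasted arrays lie below the fed arrays for Atp2a2, Atp2b1 and Slc8a1 and above them for Itpr2, and the groups overlap for the other 5 genes.

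The SERCA2 pump gene Atp2a2, the housekeeping pump of the ER, read 1.23-fold lower in fasted rats, short of a call, while Atp2a3, which codes for the lower-affinity pump SERCA3, gave no difference beyond its spread. Atp2a2 measured 1499, 1317 and 1434 in fasted rats and 1947, 1537 and 1752 in fed rats. All fasted arrays lay below all fed arrays, and the closest pair was fasted replicate 1 and fed replicate 2. The means were 1417 ± 92.5 in fasted and 1745 ± 205 in fed rats (SD, n = 3 each), a log2 ratio of -0.30 (standard error 0.11, unadjusted p = 0.0316, adjusted p = 0.3, both from limma). Such separation was found for 21.2% of all genes, and the smallest p that an exact permutation test of 3 against 3 arrays can give is 0.1, which Atp2a2 reached (two-sided).

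The second Atp2a2 probe set ran the same way, with 1050.0, 1053 and 1013 in fasted rats and 1462, 1102 and 1335 in fed rats. A dimmer one measured 64.9, 59.0 and 58.4 in fasted rats and 98.1, 71.1 and 95.4 in fed rats. On these 3 probe sets the fasted arrays were all below the fed ones, with log2 ratios of -0.31 on the second and -0.52 on the dimmer one (unadjusted p = 0.0318 and 0.0205 from limma). The remaining Atp2a2 probe sets had log2 ratios of 0.09 and -0.34 with overlapping groups, the last of them below the median probe set. None reached 1.5-fold in this fit, and the files do not say which splice forms of the pump they read. In fed replicate 2, which had the highest alpha cell markers, all 3 separated probe sets were at their lowest among fed rats. Without that array the log2 ratio of Atp2a2 was -0.38 (unadjusted p = 0.0100 from limma), and the part of the alpha cell markers in it was not tested. Leaving out fasted replicate 2 or 3 instead gave Atp2a2 log2 ratios of -0.24 and -0.31 (unadjusted p = 0.1002 and 0.0766 from limma). Leaving out fed replicate 1 or 3 gave -0.21 and -0.29 (unadjusted p = 0.0990 and 0.0842 from limma). The size of this difference depended on array scaling, at a log2 ratio of -0.15 with quantile normalization, and of -0.052 with scaling to the 75th percentile (unadjusted p = 0.179 and 0.748 from limma).

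The promoter of Atp2a2 is shown because it is the ER pump gene whose probe sets separated the groups, and because its window lies wholly before the annotated gene, as it does for 2 of the 9 genes. It is the RefSeq sequence of rat assembly GRCr8, chr12:39733269-39733518, plus strand, the 250 bases before the transcription start. Capitals mark CCAAT and CCAC with 9 bases between them. This is the ER stress response element (CCAAT, any 9 bases, CCACG) without its last letter, a form chosen after the sequence had been seen.

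Atp2a2: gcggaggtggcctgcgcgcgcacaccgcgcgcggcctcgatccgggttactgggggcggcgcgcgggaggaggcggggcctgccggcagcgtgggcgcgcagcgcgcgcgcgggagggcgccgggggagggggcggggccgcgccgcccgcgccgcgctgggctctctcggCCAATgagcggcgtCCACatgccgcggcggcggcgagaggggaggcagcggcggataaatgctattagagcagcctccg

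The full ER stress response element was not in the Atp2a2 window on either strand, and 0.0657% of 33469 rat promoter windows of this length held it. The form without the last letter was in 0.29% of them. The window also held the GC box letters GGGCGG, as 30.5% of all windows did, and no cyclic AMP response element (TGACGTCA, in 1.59% of windows). These matches are letters in a sequence, and binding was not measured.

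Atp2a3 measured 1321, 1574 and 1725 in fasted rats and 1581, 1297 and 1992 in fed rats on its brightest probe set. The groups overlapped, with the lowest and the highest array both from fed rats. The log2 ratio was -0.06, with a 95% interval of -0.50 to 0.37 from limma. The second probe set measured 348, 470 and 611 in fasted rats and 508, 489 and 481 in fed rats, with a log2 ratio of -0.08. Among fed rats the brightest probe set of Atp2a3 ran opposite to the alpha cell markers, at its lowest in replicate 2 and its highest in replicate 3. The second probe set did not, with its lowest value in replicate 3, and the part of the alpha cell markers was not tested. With quantile normalization the log2 ratio of Atp2a3 was 0.069, and with scaling to the 75th percentile 0.18, so its sign followed the scaling. The log2 ratio of Atp2a2 was 0.23 below that of Atp2a3 when both were read within the same arrays, a difference that one factor per array leaves as it is. An exact permutation test of this difference over the 6 arrays gave a two-sided p of 0.2. The smallest p that this test can give here is 0.1, so it cannot decide whether the 2 pump genes differed in their response.

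**Figure D2:**
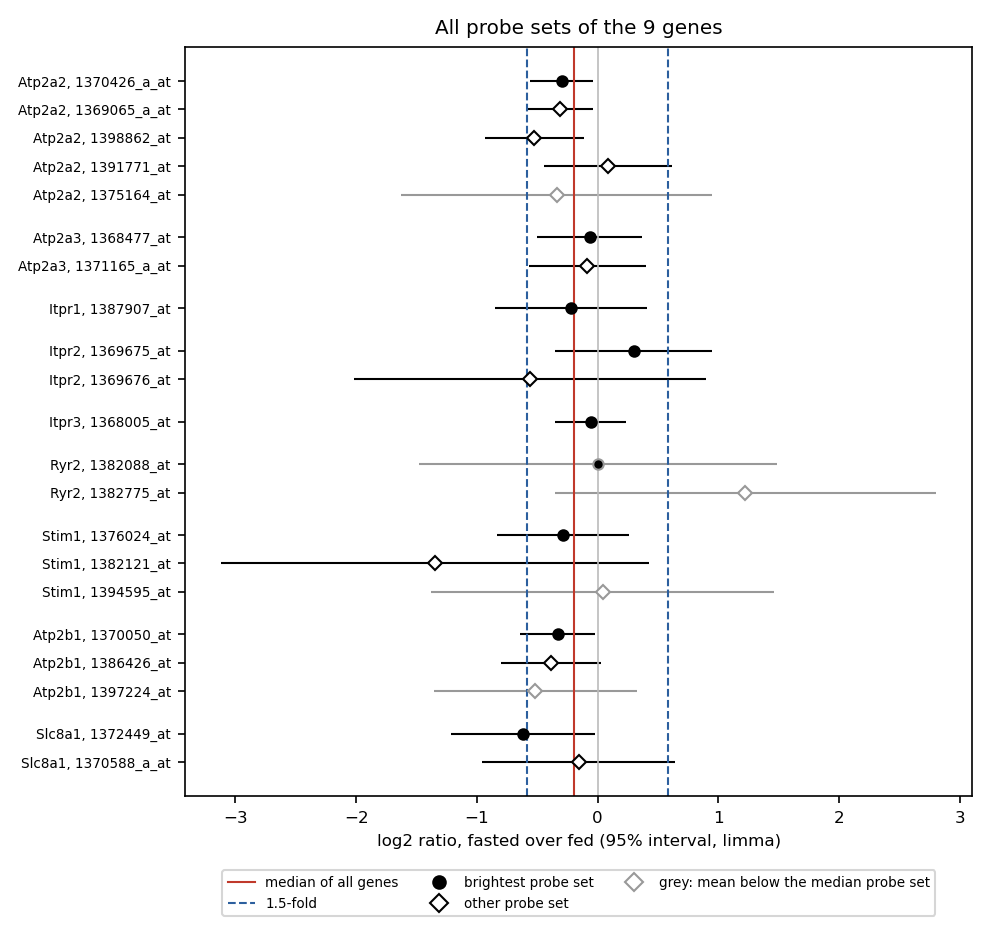
Log2 ratio of fasted over fed with its 95% interval from limma for the 21 probe sets of the 9 genes; filled circles are the brightest probe sets, diamonds the others, grey ones have a mean below the median probe set, the red line is the median of all genes (-0.19) and dashed lines mark 1.5-fold. The 3 upper Atp2a2 probe sets and the 2 upper Atp2b1 probe sets lie between -0.30 and -0.52, and Slc8a1 has one probe set at -0.62 and one at -0.16.

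None of the 4 release channel genes was called. Itpr1, the IP3 receptor first known from cerebellum, measured 50.6, 89.6 and 92.9 in fasted rats and 90.6, 93.4 and 78.3 in fed rats. Fasted replicate 1 stood apart, and the other 2 fasted arrays lay among the fed ones. The log2 ratio was -0.22 (95% interval -0.85 to 0.41), and 0.066 without fasted replicate 1.

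Itpr3, the IP3 receptor of many secretory epithelia, had the narrowest spread of the channels, with 143, 146 and 128 in fasted rats and 146, 159 and 129 in fed rats. Its log2 ratio was -0.06 with a 95% interval of -0.35 to 0.24, which does not reach 1.5-fold on either side. Quantile normalization gave a ratio of 0.11, and scaling to the 75th percentile 0.19.

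Itpr2, the remaining IP3 receptor, was dim, with 26.3, 24.8 and 26.3 in fasted rats and 23.5, 23.7 and 16.5 in fed rats. All fasted arrays were above all fed ones, as for 5.76% of all genes, but the log2 ratio of 0.30 did not pass (unadjusted p = 0.302 from limma). Its other probe set gave a log2 ratio of -0.56 with overlapping groups, and the mean of both gave -0.13.

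Ryr2, the ryanodine receptor best known from heart muscle, lay below the median probe set. Its brighter probe set measured 10.8, 15.5 and 13.9 in fasted rats and 16.3, 25.7 and 5.50 in fed rats, and the fed arrays enclosed the fasted ones. The log2 ratio was 0.01, with a 95% interval of -1.48 to 1.49, which spans more than 2-fold on either side. The other Ryr2 probe set had 3 of 6 values below the floor of 3.27 and gives no usable ratio. A change in Ryr2 was not detectable at this signal.

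Stim1, the sensor of ER calcium that opens store-operated channels, measured 54.6, 59.6 and 76.7 in fasted rats and 87.9, 59.0 and 87.3 in fed rats. The groups overlapped through fed replicate 2, and the log2 ratio was -0.29 (standard error 0.23, unadjusted p = 0.25 from limma). A second, dimmer probe set measured 4.61, 13.9 and 35.8 in fasted rats and 37.8, 31.1 and 32.01 in fed rats, so fasted replicates 1 and 2 were low and replicate 3 lay among the fed arrays. Its log2 ratio was -1.35 with a standard error of 0.73. The third probe set was below the median one, with a log2 ratio of 0.05.

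Of the exporters in the plasma membrane, Atp2b1, a calcium pump found in most cells, read lower in fasted rats by less than 1.5-fold. It measured 247, 203 and 235 in fasted rats and 326, 281 and 256 in fed rats. The groups did not overlap, and fasted replicate 1 and fed replicate 3 came closest. The means were 228 ± 22.7 in fasted and 287 ± 35.5 in fed rats (SD, n = 3 each), a log2 ratio of -0.33 (standard error 0.13, unadjusted p = 0.0418, adjusted p = 0.321, both from limma). The second probe set measured 95.1, 93.4 and 134 in fasted rats and 147, 130 and 140 in fed rats, where fasted replicate 3 lay inside the fed range, with a log2 ratio of -0.39 (unadjusted p = 0.0613). The dimmest gave -0.51 with overlapping groups, so that all 3 probe sets were negative. After scaling to the 75th percentile the log2 ratio of the brightest was -0.08, and after quantile normalization -0.20.

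Slc8a1, which exchanges sodium for calcium at the plasma membrane, had the log2 ratio farthest from 0 among the brightest probe sets of the 9 genes. It measured 239, 407 and 463 in fasted rats and 584, 524 and 535 in fed rats. All fasted arrays were below all fed ones, and fasted replicate 1 lay far below the other 2 fasted arrays. The means were 369.8 ± 117 in fasted and 548 ± 32.3 in fed rats (SD, n = 3 each), which is a log2 ratio of -0.62 (standard error 0.25, unadjusted p = 0.0436, adjusted p = 0.324, both from limma). Without fasted replicate 1 the log2 ratio was -0.33 (unadjusted p = 0.0139), below 1.5-fold. The call held under 4 of 16 alternatives on this probe set, and the log2 ratio was negative in all 16. Quantile normalization gave -0.48 and scaling to the 75th percentile -0.38. The other Slc8a1 probe set, near the median of the array, measured 20.1, 15.7 and 30.4 in fasted rats and 22.1, 23.0 and 26.0 in fed rats, which overlapped (log2 ratio -0.16). The sequence table gives for Slc8a1 a window that overlaps the annotated gene, and it is not shown.

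**Figure D3:**
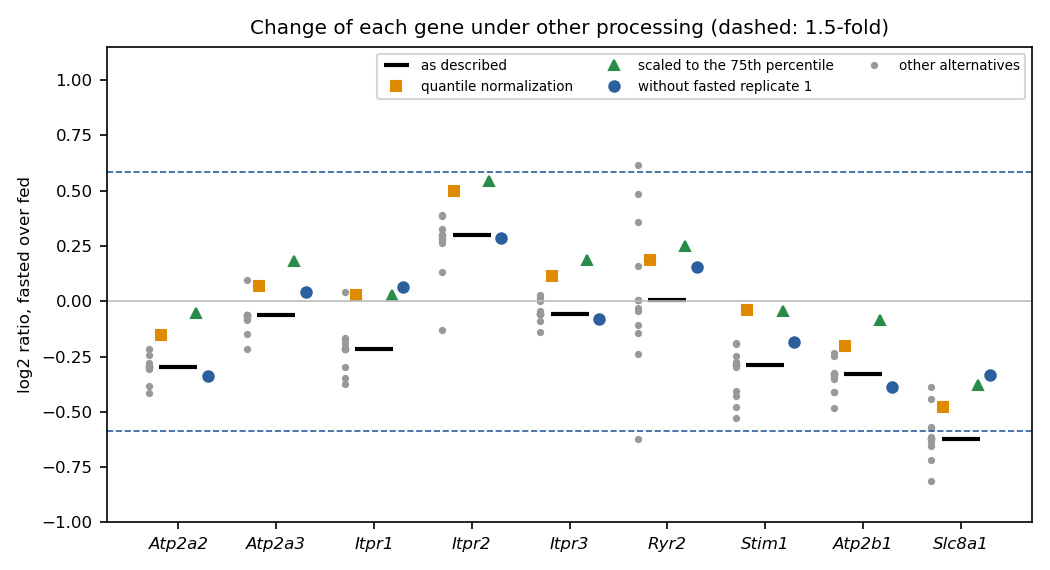
Log2 ratio of fasted over fed of the 9 genes (brightest probe set, or the mean of all probe sets as one alternative) as described in the text (black bar), after quantile normalization (orange), after scaling to the 75th percentile (green), without fasted replicate 1 (blue) and under the other alternatives (grey); dashed lines mark 1.5-fold. Both scalings move all 9 genes upwards, and for Slc8a1 leaving out fasted replicate 1 gives -0.33 in place of -0.62.

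Other genes of calcium handling were read from 7 lists by role, of which 102 genes were measured. At the same thresholds 4 were lower and none was higher, beside 9.51% and 2.29% of all genes, and their median log2 ratio was -0.13. After quantile normalization, and also after scaling to the 75th percentile, 3 were lower and 4 higher. With pseudocount, robust variance or array weights, the counts were 7, 5 and 18 lower and 2, 3 and 9 higher. Over all 31042 probe sets, the same 3 settings called 2963, 3014 and 6956 lower and 867, 880 and 2469 higher. For quantile normalization these counts were 1495 lower and 1263 higher, and for scaling to the 75th percentile 1326 and 1426.

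Of 12 genes of mitochondrial calcium transport 1 was lower. Mcu, the pore of the mitochondrial calcium uniporter, measured 33.5, 26.3 and 47.5 in fasted rats and 68.4, 60.6 and 63.1 in fed rats. The groups were well apart, and the log2 ratio was -0.88 (standard error 0.25, unadjusted p = 0.0117, adjusted p = 0.258, both from limma). A second Mcu probe set measured 15.5, 19.0 and 38.1 in fasted rats and 46.2, 44.5 and 41.7 in fed rats, and was also lower (log2 ratio -0.98, unadjusted p = 0.0371). The last of the Mcu probe sets lay at the lowest values of the array. Mcu stayed lower at both thresholds in all 16 alternatives on its brightest probe set, array scaling included, with log2 ratios from -1.26 to -0.64. Letm1, a cation exchanger of the inner mitochondrial membrane, had a log2 ratio of -0.45 (unadjusted p = 0.02) and missed 1.5-fold, and its other probe sets, at -0.25 and -1.12, were not called.

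None of 12 genes of store-operated entry was called, but Saraf, an ER protein that turns this entry off, had the largest moderated t of all 102. It measured 1067, 1232 and 1191 in fasted rats and 1660, 1522 and 1658 in fed rats. The groups lay clearly apart with a small spread, at a log2 ratio of -0.47 (standard error 0.08, unadjusted p = 0.00117, adjusted p = 0.176, both from limma), short of 1.5-fold. Quantile normalization gave -0.32, and scaling to the 75th percentile -0.23 (unadjusted p = 0.00279 and 0.0756). Leaving out dim probe sets lowered the adjusted p of Saraf to 0.0485. Orai3, a channel subunit, measured 11.8, 18.7 and 49.6 in fasted rats and 55.7, 42.2 and 64.3 in fed rats, where fasted replicate 3 lay inside the fed range (log2 ratio -1.26, unadjusted p = 0.0566). Orai3 was called lower under 6 of 16 alternatives and negative in all 16.

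Among 10 genes of ER pumps and their regulators none was called. Sln (sarcolipin), a small inhibitor of SERCA pumps known from muscle, measured 18.5, 27.1 and 20.8 in fasted rats and 8.16, 16.6 and 11.5 in fed rats. The groups did not overlap, with a log2 ratio of 0.91 (unadjusted p = 0.0533), and the signal was below the median probe set. Sln was called higher under both scalings (log2 ratios 1.11 after quantile normalization and 1.16 with the 75th percentile), and under 8 of 15 alternatives in all. Its relative Pln (phospholamban) measured 49.5, 53.9 and 10.1 in fasted rats and 11.1, 4.40 and 14.6 in fed rats. Fasted replicates 1 and 2 were high and replicate 3 was not. This probe set was called higher under 5 of 16 alternatives, and the other Pln probe sets had log2 ratios of -1.11 and -0.41.

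Of 17 release channels and partners Ryr3 was lower (log2 ratio -1.28), with 2.09, 3.33 and 3.39 in fasted rats and 7.35, 6.64 and 10.9 in fed rats. These values lie close to the floor of 3.27, and with a floor at the 25th percentile the log2 ratio was -0.18 and the call was lost. Cherp missed 1.5-fold (log2 ratio -0.46, unadjusted p = 0.0199). The call was likewise lost at that floor for Plcb2, a phospholipase C best known from blood cells and the 1 called of 19 genes of IP3 metabolism, at log2 ratios of -1.03 and, with the higher floor, -0.11. Inpp1, an inositol phosphatase, missed 1.5-fold at -0.54 on its brightest probe set (unadjusted p = 0.024). Its other probe set was called lower, with 30.7, 46.7 and 29.7 in fasted rats and 54.8, 50.5 and 56.8 in fed rats (log2 ratio -0.63, unadjusted p = 0.0341). Of 18 cytosolic sensors and buffers Camk2g, a subunit of calmodulin-dependent kinase, was lower. It measured 23.4, 31.6 and 36.8 in fasted rats and 51.2, 47.1 and 44.5 in fed rats, a log2 ratio of -0.66 (unadjusted p = 0.0286). Its groups did not overlap, and the call held under 8 of 16 alternatives but not without fasted replicate 1 (log2 ratio -0.48), while a dimmer probe set gave 0.08. The calmodulin-binding peptide Pcp4 was at -0.40 (unadjusted p = 0.0741). None of 14 other pumps and exchangers of the plasma membrane and Golgi was called, and the largest moderated t among them was that of Tmem165, a Golgi membrane protein, with a log2 ratio of -0.51 (unadjusted p = 0.0159), followed by Bsg (basigin) at -0.49 (unadjusted p = 0.0187).

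**Figure D4:**
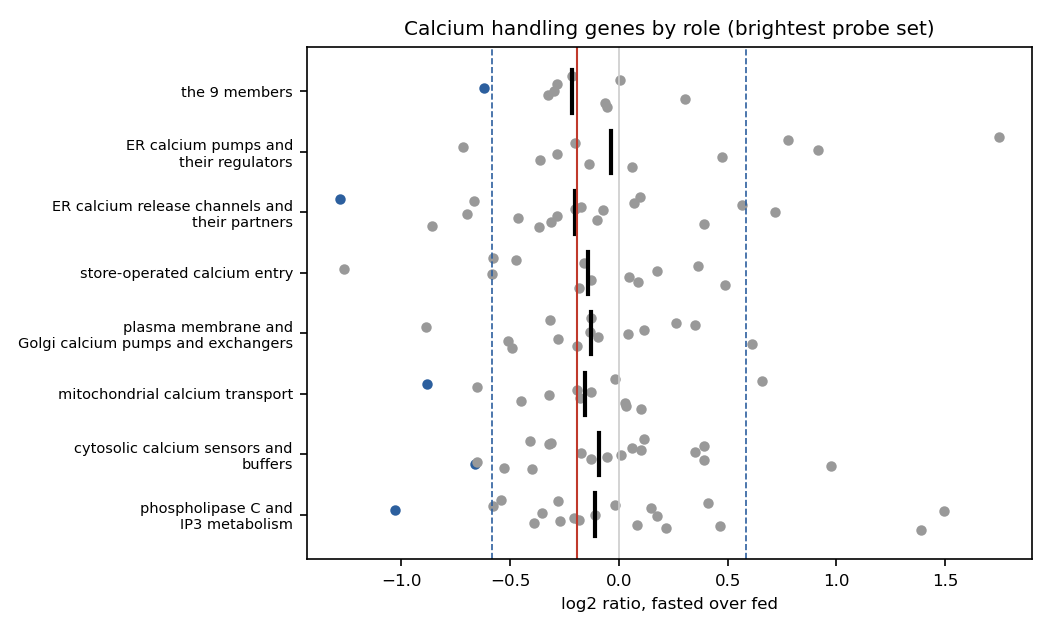
Log2 ratio of fasted over fed (brightest probe set) of the 9 genes and of 7 lists of other calcium handling genes; blue points were called lower, grey points were not called, black bars are medians, the red line is the median of all genes and dashed lines mark 1.5-fold. The medians of the 7 lists lie between -0.20 and -0.04, and 5 genes are blue, Slc8a1, Ryr3, Mcu, Camk2g and Plcb2.

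Across the 6 arrays, the genes whose log2 intensity was most like that of Atp2a2 were Tes, Naa38 and Smim22 (Pearson r = 0.99 for each), among 9197 genes brighter than the median probe set. Those most like Atp2a3 were Dcakd (r = 0.99), Cux1 (0.98) and Ngdn (0.97). All points share the same 6 arrays, and these values are a description.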

How the data were processed

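The authors hybridized RNA of 3 isolates per group to Affymetrix arrays and deposited linear intensities made with dChip's model-based analysis, after normalization to the array of median intensity and background correction by mismatch probes. For the dChip version, the labels and methods read here are silent. Control probe sets (57) were dropped, a floor was set at the 10th percentile (3.27), and the log2 values of 31042 probe sets went into limma 3.58.1 under R 4.3.3 (intensity trend, 2 groups, no block, two-sided, Benjamini-Hochberg adjustment over all). A floor understates changes of dim probe sets. The fit was tested on simulated data. A call needs a fold of 1.5 and an unadjusted p under 0.05, the thresholds of the study. The study reported a far smaller share of transcripts changed at these thresholds than the 10.8% of probe sets called here with limma.

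Symbols came from the platform annotation, single for 20826 probe sets, several for 436 and none for 9780. The 9 genes, the 7 lists of other calcium genes and the 9 marker lists were chosen with earlier results of these data known. Of each list the called genes are named, or the 2 with the largest moderated t where fewer than 2 were called. The number of arrays limits the precision. Alternatives were other scalings, floors, filters, variance models, a comparison of linear means (Welch), a replicate block and leaving out each array. Figures were drawn with matplotlib 3.10.9.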

Additional observations from a re-analysis of the deposited data

How the results depend on the processing

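The count of 1 gene lower among the 9 (Slc8a1) was 1 with a pseudocount, with dim probe sets left out and with robust variance. It was 0 with quantile normalization, scaling to the 75th percentile, a floor at the 25th percentile, no intensity trend, array weights, Welch's comparison of linear means, the replicate block and averaging over each gene's probe sets, and 0 to 1 when 1 array was left out (1 only without fasted replicate 3). For Slc8a1 the unadjusted p was 0.0556 with the replicate block and 0.109 with Welch's comparison. No shared effect of the replicate number was seen, as deviations of same-numbered arrays from their group means correlated at 0.00, 0.01 and -0.05. Whether same-numbered isolates were prepared as pairs is not given by the labels. Over all probe sets the replicate block called 2046 lower and 644 higher. No alternative called any of the 9 higher on its brightest probe set or on the mean of its probe sets. The other Ryr2 probe set, with 3 of 6 values below the floor, was called higher under 2 of 15 alternatives. The second Stim1 probe set and the third Atp2a2 probe set were each called lower under 2 of 16. The median log2 ratio of the 9 genes was 0.027 with quantile normalization, 0.026 when scaled to the 75th percentile and -0.31 to -0.08 with 1 array left out.

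Some ratios near 0 changed sign. Atp2a3 was at 0.069 and 0.18 after quantile normalization and scaling to the 75th percentile, Itpr1 at 0.027 and 0.026, and Itpr3 at 0.11 and 0.19. With array weights, whose estimate stopped before convergence, Itpr1 was at 0.042 and Itpr3 at 0.028. Ryr2 was at -0.14 with the higher floor, -0.042 with a pseudocount and -0.24 with linear means, and Itpr2 at -0.13 with the mean of its probe sets. With 1 array left out Atp2a3 ranged from -0.21 to 0.10, Itpr1 from -0.37 to 0.066, Itpr3 from -0.14 to 0.015 and Ryr2 from -0.62 to 0.49. With array weights the brightest probe sets of Atp2a2, Atp2b1 and Slc8a1 had an adjusted p of 0.0130, 0.0142 and 0.0238 from limma, at log2 ratios of -0.41, -0.48 and -0.44. That setting called 6956 of all 31042 probe sets lower and 2469 higher, beside 2616 and 737 in the main fit. The cause of these shifts between settings was not tested.

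Of the 102 other calcium genes, 2 were lower and 1 higher with the higher floor, 7 and 2 with a pseudocount and 18 and 9 with array weights. The higher ones numbered 4 under each scaling, 3 with robust variance, 2 with the mean of all probe sets, and 1 with dim probe sets left out, no trend, linear means or the replicate block. With 1 array left out, 3 to 14 were lower and 0 to 5 higher, the most without fasted replicate 3. Over all probe sets 2616 were lower and 737 higher (78% lower). The counts were 1495 and 1263 (54.2%) after quantile normalization, 1326 and 1426 (48.2%) after scaling, 6956 and 2469 with array weights, and 1625 and 269 with linear means. They were 2963 and 867 with a pseudocount and 3014 and 880 with robust variance. The higher ones were 419 with the higher floor and 379 with dim probe sets left out. With 1 array left out 1448 to 5562 were lower and 472 to 1536 higher. Both Ryr2 probe sets and the single dimmest one of Stim1, of Atp2b1 and of Atp2a2 lay below the median probe set, and their 95% intervals were wider than 1.5-fold.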
